A study of Mus musculus with 8 samples.

Results

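The solute carrier (Slc) genes encode membrane transporters, and 155 of them make up the set described here. They are the genes of the deposited tables whose symbol has the form Slc, a family number, the letter a and a member number, and which were listed at 1 FPKM or more in at least 1 of the study's groups. FPKM is fragments per kilobase of transcript and per 1e+06 fragments of the library, so levels of different genes can be set side by side. The pattern matched 344 of the 23419 gene symbols of the tables. By family number, 21 members were placed in the amino acid class (Slc1, Slc3, Slc6, Slc7, Slc38), 4 in the sugar class (Slc2), 38 in the mitochondrial class (Slc25), 16 in the metal class (Slc30, Slc39) and 76 among the others. The members nearest the limit were Slc8a1, with a highest value of 1.01 FPKM, Slc38a9 (1.02) and Slc4a8 (1.09), and the nearest symbols outside it were Slc52a3 (0.944), Slc22a21 (0.941) and Slc36a1os (0.936). 3 members name no carrier: Slc9a3r1 is a scaffold protein, Slc4a1ap is an adaptor protein, and Slc7a6os is named for the strand opposite Slc7a6. The sources used here do not say whether counting used strand, so reads of Slc7a6 and Slc7a6os may not have been told apart. Slc10a3 shared its row with Ubl4 in both tables, and Slc8b1 stood under an older symbol, Slc24a6, in the table of wild-type cells. Carriers with other letters in their symbols (Slc35b to Slc35g, Slco and others) are not matched by the pattern.

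The study compared CBD with DMSO, the vehicle, in ASZ cells, a line from mouse basal cell carcinoma, and in ASZ cells that carry RasV12, the constitutively active Ras protein. There were 4 groups of 2 libraries: wild-type ASZ cells with DMSO, wild-type ASZ cells with CBD, RasV12 cells with DMSO and RasV12 cells with CBD. The abbreviation CBD is not explained in the labels, which give no dose or time, do not say which Ras gene or promoter was used, and do not say whether the RasV12 cells are 1 clone. They also do not say whether the libraries of a group came from separate cultures, so p-values may measure technical spread only. In the study's title the subject is a switch from Hedgehog to Ras/MAPK signalling when primary cilia are lost.

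Solute carriers move ions, sugars, amino acids, nucleotides, metals and vitamins across the plasma membrane and the membranes of organelles, either down a gradient or coupled to the movement of an ion or a second solute. Proliferating epithelial and carcinoma cells depend on them for glucose, for essential amino acids, and for cystine, the source of glutathione. The Slc25 family sits mostly in the inner mitochondrial membrane and exchanges nucleotides, phosphate, carboxylates, amino acids and cofactors between cytosol and matrix.

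The deposited tables gave 1 value per gene and group, so every level below is the authors' group value, with no spread between libraries. The estimated depth was 14.4 M and 13.9 M fragments per library (M, 1e+06) for wild-type ASZ cells with DMSO and with CBD, and 15.98 M and 10.9 M for RasV12 cells. At a member of median length, 1 FPKM then stood for 75.99 to 111 fragments in a group. The 8 basal keratinocyte markers were all at 1 FPKM or more in every group, and Krt5 stood between 3408 and 6226 FPKM. Of these 8, 1 rose and 3 fell in ASZ cells (12.5% and 37.5%, near the 14% and 42.4% of all genes), and 2 rose and 2 fell in RasV12 cells (25% each, where 18.7% and 24.4% of all genes did). The 4 leukocyte markers summed to at most 0.0244 FPKM and the fibroblast markers to at most 1.503 FPKM. Of the endothelial markers, Pecam1 stood at 9.44 to 23.3 FPKM, while Cdh5 and Kdr were at or near 0. Of the melanocyte markers, Mitf fell with CBD in both lines (7.56 to 1.05 FPKM in ASZ, 9.76 to 1.48 in RasV12). Tyr rose from 0.276 to 4.11 FPKM in ASZ cells, where it reached 1 FPKM only with CBD, a choice that favours a rise. In RasV12 cells Tyr stood at 0.209 and 0.892 FPKM and was not tested. Pmel stood at 0.460 to 1.14 FPKM with no call, and Dct did not pass 0.0159 FPKM in any group. The part of these markers in the changes of the carriers was not tested. In bulk RNA, fewer cells of a type and less RNA per cell cannot be told apart.

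Changes depend on how the DMSO and CBD groups are put on 1 scale. The CBD groups held more FPKM in all. Setting the FPKM sums equal lowered every log2 ratio of CBD to DMSO by 0.52 in ASZ cells and by 0.59 in RasV12 cells. Setting the median gene to 0 subtracted a shift of -0.44 in ASZ cells, which raised every ratio, and of -0.01 in RasV12 cells. Setting the fragment mass (FPKM times transcript length) equal lowered the ratios by 0.13 and 0.41. As another alternative, the median of all genes in the same of 10 bins of transcript length was subtracted. A member that kept its call on the deposited scale and on these 4 alternatives is said below to hold on every scale.

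In wild-type ASZ cells, most of the tested carriers were lower with CBD. Of 144 members tested, 79 fell and 10 rose at a Benjamini-Hochberg adjusted p under 0.05, where 42.4% of all 10703 genes tested fell and 14% rose. The median change was -0.61 on the log2(FPKM + 1) scale for the carriers and -0.37 for all genes. The fall was largest for Slc38a2, a sodium-coupled importer of neutral amino acids, at 185 FPKM with DMSO and 12.2 FPKM with CBD. The 10 that rose were Slc7a14, Slc3a2, Slc48a1 and 7 mitochondrial carriers, a class with 35 of the 144 tested members. Within length bins, 8 of the 26 that rose were mitochondrial. The counts moved with scale, to 2 risen and 98 fallen with equal FPKM sums, where 4.05% of all genes rose and 59.3% fell. With equal fragment mass 9 rose and 85 fell (11% and 46.1% of all genes). With the median gene at 0 there were 26 risen and 56 fallen (27.8% and 30.7% of all genes), and within length bins 26 risen and 39 fallen (23% and 24.8%). On every scale, 35 of the 144 members fell, and 2 rose, Slc25a1 and Slc7a14, where 20.8% of all genes fell and 3.38% rose.

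In RasV12 cells, too, more carriers fell than rose, led again by Slc38a2 among the abundant ones. Of 154 members tested, 58 fell and 24 rose, where 24.4% of all 11075 genes tested fell and 18.7% rose. The median change was -0.30 for the carriers and -0.01 for all genes. Of the 24 that rose, 12 were mitochondrial, a class with 38 of the 154 tested members. Within length bins, 6 of the 25 that rose were mitochondrial. With equal FPKM sums 2 rose and 82 fell, where 2.28% of all genes rose and 42.5% fell. With equal fragment mass 7 rose and 76 fell (6.59% and 36.2% of all genes), and within length bins 25 rose and 51 fell (17% and 20.4%). With the median gene at 0 the counts of 24 risen and 58 fallen (19.1% and 24.2% of all genes) were close to those of ASZ cells on that scale. On every scale, 47 of the 154 members fell and 2 rose, Slc25a25 and Slc39a4, where 17.8% of all genes fell and 2.25% rose. Some members could be tested only because 1 group of the table reached 1 FPKM, which favours the direction away from that group. In ASZ cells 18 did so with DMSO alone, of which 16 fell, and 4 with CBD alone, of which 2 rose. In RasV12 cells 13 did so with DMSO alone, of which 9 fell, and 4 with CBD alone, of which 2 rose.

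**Figure D1:**
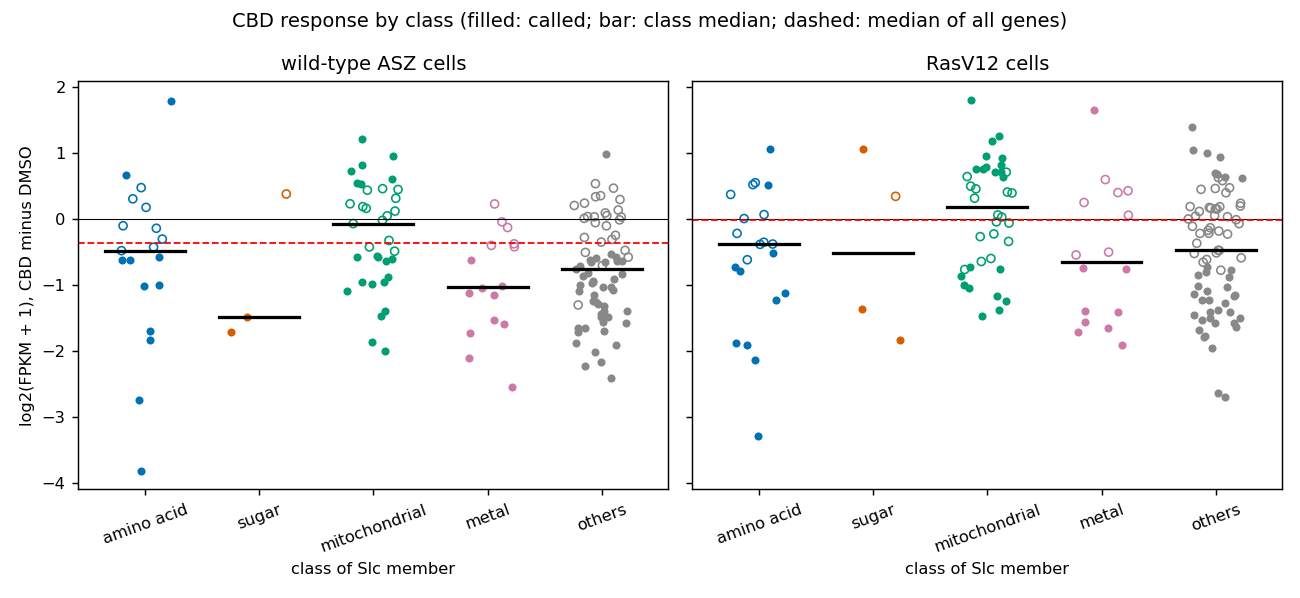
Change of each Slc member with CBD, as log2(FPKM + 1) of the CBD group minus the DMSO group (vertical axis), by class (horizontal axis), in wild-type ASZ cells (left) and RasV12 cells (right), on the deposited scale. Filled points passed adjusted p under 0.05, open points did not, black bars are class medians and the dashed line is the median of all genes tested (-0.37 and -0.01). The mitochondrial class has the highest median in both lines (-0.07 and 0.19), and that median turns sign on other scales (0.19 in ASZ with the median gene at 0, -0.26 in RasV12 with equal FPKM sums).

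The responses of the lines ran in the same direction for most carriers. Of 143 members tested in both lines, 52 (36.4%) fell in both, where 23.2% of 10438 genes did. A further 8 (5.59%) rose in both, against 9.62% of all genes, and 0 were called in opposite directions, against 0.833% (0.719% with the RasV12 call higher). In ASZ cells 26 (18.2%) fell without a call in RasV12 cells, against 18.7% of all genes, and 16 (11.2%) rose in RasV12 cells without a call in ASZ cells, against 8.96%. A further 2 (1.41% of all genes) fell in RasV12 cells without an ASZ call, 2 (4.2%) rose in ASZ cells without a RasV12 call, and 37 were not called in either line, against 33% of all genes. A call in 1 line alone does not show a difference between the lines. Across members the Spearman correlation of the changes was 0.84, and 0.83 across all genes; genes are not independent replicates and each table compares its own groups. On every scale, 26 of the 143 members fell in both lines and 0 rose in both. Of the 10438 genes, 1393 fell and 88 rose in both on every scale. These 26 were Slc38a2 and Slc6a6, Slc2a1 and Slc2a5, Slc25a13, Slc25a16 and Slc25a44, Slc30a5, Slc30a6, Slc39a9 and Slc39a10, and 15 of the others. Among them, Slc2a5, Slc29a3 and Slc46a3 reached 1 FPKM only with DMSO in both tables, and some more did so in 1 table. That choice favours a fall.

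**Figure D2:**
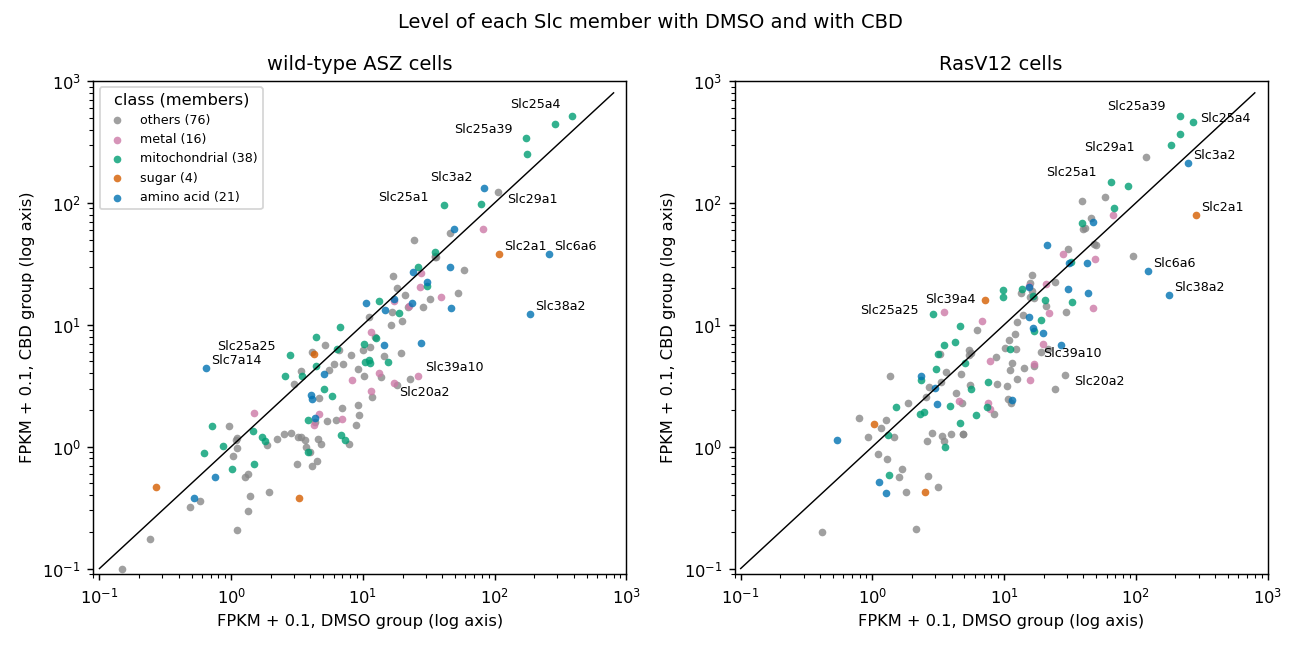
Level of each of the 155 Slc members with DMSO (horizontal axis) and with CBD (vertical axis), as FPKM + 0.1 on log axes, in wild-type ASZ cells (left) and RasV12 cells (right). Points below the line were lower with CBD. Slc38a2, Slc6a6 and Slc2a1 lie farthest below it among the members over 100 FPKM with DMSO, and Slc25a39 and Slc25a1 lie above it on the deposited scale (with equal FPKM sums Slc25a39 is not called in either line, and Slc25a1 is not called in RasV12 cells).

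In the amino acid class, the importers at the plasma membrane made up the deepest falls. In ASZ cells 9 of 19 tested members fell and 2 rose (47.4% and 10.5%), near the 42.4% and 14% of all genes, with a median change of -0.48. In RasV12 cells 9 of 21 fell and 2 rose (42.9% and 9.52%, against 24.4% and 18.7%), with a median of -0.38. After subtraction of the length bin medians the ASZ median was 0.10, so its sign is not stable. In both lines 7 members fell.

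Slc38a2 stood at 185 FPKM with DMSO and 12.2 with CBD in ASZ cells, and at 179 and 17.5 FPKM in RasV12 cells. The CBD groups lay 15.1-fold and 10.2-fold below the DMSO groups, on every scale. The log2 ratio was -3.92 with a standard error of at most 0.48 in ASZ cells and -3.35 with a standard error of at most 0.83 in RasV12 cells; these errors are implied by the authors' p-values, which were at the lowest value of each table. Its relative Slc38a1, a system A transporter of glutamine and alanine, stood at 27.3 and 6.996 FPKM in ASZ cells and at 27.1 and 6.68 FPKM in RasV12 cells. It fell 3.91-fold and 4.06-fold, and the ASZ call was lost after subtraction of the length bin medians.

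Slc6a6, the taurine transporter, was the most abundant amino acid class member of wild-type cells with DMSO. It stood at 259 FPKM with DMSO and 37.96 with CBD in ASZ cells, and at 124 and 27.5 FPKM in RasV12 cells. The fall was 6.83-fold and 4.49-fold and held on every scale in both lines. Slc7a1, which imports arginine and lysine, stood at 46.5 and 13.7 FPKM in ASZ cells and at 19.6 and 8.48 FPKM in RasV12 cells, and its falls of 3.38-fold and 2.31-fold were called on every scale except the length bins.

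Slc7a11, which exchanges cystine for glutamate, and Slc1a4, which carries alanine, serine and cysteine, both fell in both lines. Slc7a11 stood at 4.25 and 1.63 FPKM in ASZ cells and at 11.3 and 2.29 FPKM in RasV12 cells. Its log2 ratio was -1.39 ± 0.27 (SE) in ASZ cells with an adjusted p of 1.5e-06, and -2.30 with a standard error of at most 0.57 in RasV12 cells with an adjusted p of 0.00032. The ASZ ratio turned to 0.19 after subtraction of the length bin medians, where its transcript of 9223 nucleotides was set against other long ones. Slc1a4 stood at 23.5 and 14.9 FPKM in ASZ cells and at 43.4 and 18.01 FPKM in RasV12 cells, a fall of 1.57-fold, lost with the median gene at 0 and within length bins, and of 2.41-fold, held on every scale.

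Both genes are textbook targets of ATF4, the transcription factor of the amino acid response, which binds with partners at elements with the core TGATGNAA. Their promoter windows are shown because they are the only amino acid class members, among the 15 with a RefSeq window, in which this core was found on either strand. Each window runs from 250 bases before to 50 bases after the gene's start, 5′ to 3′ on the gene's strand, from RefSeq on GRCm38.p6, a later build than the mm9 of the deposited tables; capitals mark the core. The Slc7a11 window is chr3:50443564-50443863 on the minus strand and holds the core on both strands, 66 and 47 bases before the start. The Slc1a4 window is chr11:20332664-20332963 on the minus strand and holds it on the reverse strand, 4 bases before the start.
Slc7a11: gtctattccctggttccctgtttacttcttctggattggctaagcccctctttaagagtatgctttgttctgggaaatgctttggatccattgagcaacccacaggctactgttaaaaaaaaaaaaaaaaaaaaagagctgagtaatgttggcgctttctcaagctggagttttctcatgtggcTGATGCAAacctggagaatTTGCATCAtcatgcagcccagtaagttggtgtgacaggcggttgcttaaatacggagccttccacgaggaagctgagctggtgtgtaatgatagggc
Slc1a4: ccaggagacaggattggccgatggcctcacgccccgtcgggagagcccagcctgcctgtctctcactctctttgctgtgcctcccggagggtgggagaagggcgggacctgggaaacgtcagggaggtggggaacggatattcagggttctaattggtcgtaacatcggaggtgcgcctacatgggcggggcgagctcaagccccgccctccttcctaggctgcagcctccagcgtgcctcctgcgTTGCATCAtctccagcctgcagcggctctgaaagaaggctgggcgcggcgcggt
The core stood in 3 of 155 windows of the 117 members with a window, or 1.94%, and in 3.97% of all 32851 windows. The third member was Slc50a1, a sugar transporter that was not called in either line. A match is a description of letters, not evidence of binding.

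Of 9 amino acid carriers named in textbooks as ATF4 targets, 8 were tested, and 4 fell and 1 rose in each line (50% and 12.5%), with median changes of -0.46 and -0.75. Of all genes, 42.4% fell and 14% rose in ASZ cells, and 24.4% fell and 18.7% rose in RasV12 cells. The ASZ median turned to 0.12 within length bins. Those that fell in both lines were Slc38a2, Slc7a1, Slc7a11 and Slc1a4, and Slc7a3 was under 1 FPKM throughout. Other genes of the same response moved the other way: Ddit3, which encodes the stress-induced factor CHOP, rose from 16.996 to 75.8 FPKM in ASZ cells and from 19.2 to 184 FPKM in RasV12 cells, on every scale. Asns, the asparagine synthetase gene, rose from 86.2 to 127 FPKM and from 64.0 to 107 FPKM, calls that were lost in both lines with equal FPKM sums and with equal fragment mass. Atf4 itself was not called, at 73.0 and 99.1 FPKM in ASZ cells and 94.1 and 109 FPKM in RasV12 cells. Of the 9 genes of the amino acid sensing list, 2 rose and 1 fell in ASZ cells, and 4 rose and 1 fell in RasV12 cells, with median changes of -0.11 and 0.21. Of all genes, 14% and 18.7% rose and 42.4% and 24.4% fell. The one that fell in both was Sesn1, a sestrin, from 8.08 to 1.99 FPKM and from 26.3 to 9.60 FPKM.

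The heavy chain Slc3a2 and the light chain Slc7a5, which pair at the cell surface to import leucine, did not follow the fall. Slc3a2 stood at 83.0 FPKM with DMSO and 133 with CBD in ASZ cells, and at 247 and 213 FPKM in RasV12 cells. It rose 1.60-fold in ASZ cells (adjusted p = 0.0034, from the authors' p-value), a call lost with equal FPKM sums, and was not called in RasV12 cells (log2 ratio -0.22 ± 0.26, SE), except as a fall with equal FPKM sums and equal fragment mass. Slc7a5 stood at 49.2 and 61.1 FPKM in ASZ cells, with no call, and at 21.2 and 45.1 FPKM in RasV12 cells, where it rose 2.13-fold (adjusted p = 0.00059, from the authors' p-value) except with equal FPKM sums. With DMSO, the wild-type table listed the higher Slc7a5 and the RasV12 table the higher Slc3a2, with no test across tables. Slc1a5, a glutamine transporter, was low and not called, at 4.98 and 3.85 FPKM in ASZ cells and 2.99 and 2.13 FPKM in RasV12 cells.

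Slc7a14, a lysosomal relative of the cationic amino acid transporters, had the largest rise of any member in ASZ cells. It stood at 0.541 FPKM with DMSO and 4.32 with CBD in ASZ cells, and at 0.436 and 1.04 FPKM in RasV12 cells. The rise was 7.98-fold on every scale in ASZ cells and 2.398-fold in RasV12 cells, where it was lost with equal FPKM sums and equal fragment mass. In both tables it reached 1 FPKM, and so could be tested, only in the CBD group, a choice that favours a rise. The remaining class members included Slc6a8, the creatine transporter, Slc6a4, the serotonin transporter, and Slc6a9, a glycine transporter. These 3 were not called in either line on the deposited scale. Slc38a9, which senses arginine at the lysosome, fell from 1.02 to 0.409 FPKM in RasV12 cells, except within length bins, and was below 1 FPKM in ASZ cells. It reached 1 FPKM in that DMSO group alone, a choice that favours a fall.

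**Figure D3:**
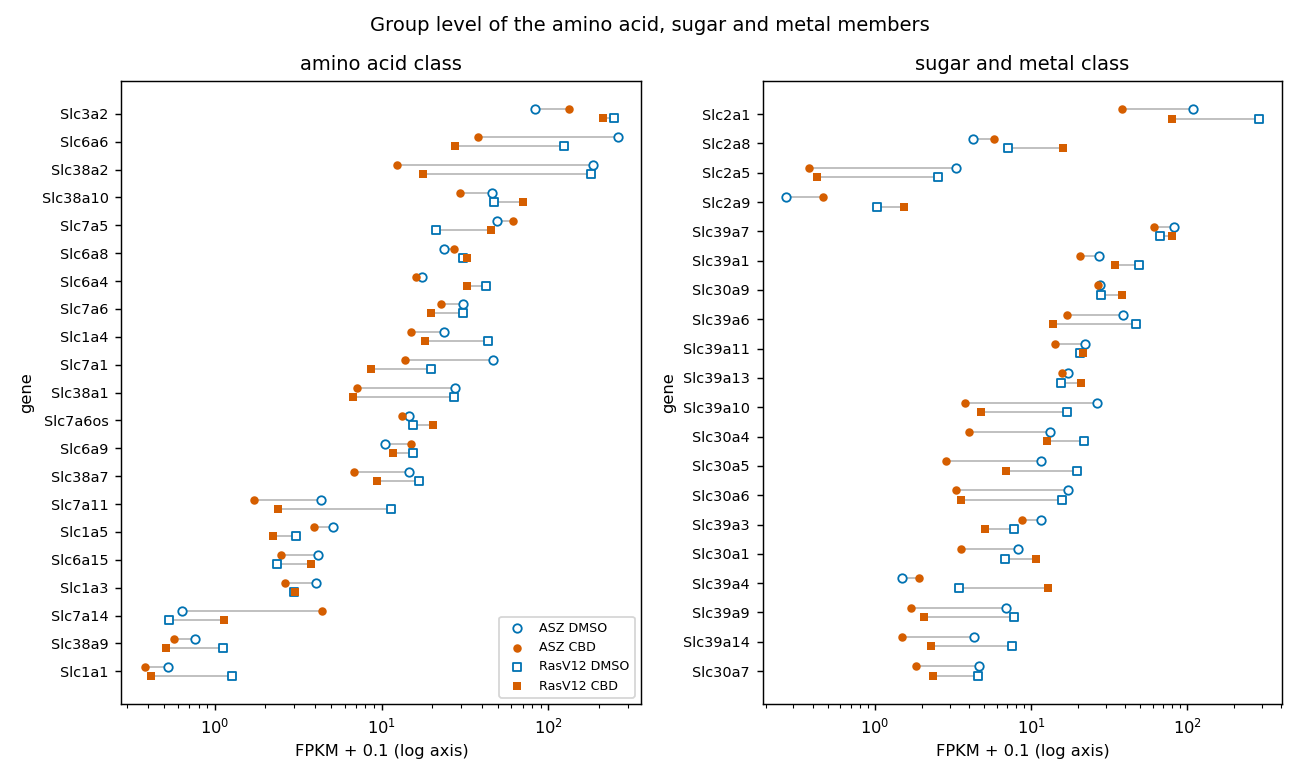
Group level, in FPKM with 0.1 added for the log axis, of each amino acid class member (left) and each sugar and metal class member (right). Open symbols are DMSO, filled symbols CBD, circles wild-type ASZ cells and squares RasV12 cells, and a grey line joins the groups of a line. Slc38a2, Slc6a6, Slc2a1 and Slc39a10 show long shifts to the left with CBD in both lines.

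In the sugar class the glucose carrier of the plasma membrane fell in both lines. Of 3 tested members 2 fell and 0 rose in ASZ cells, and of 4 tested 2 fell and 1 rose in RasV12 cells, where 42.4% of all genes fell and 14% rose in ASZ cells, and 24.4% and 18.7% in RasV12 cells. Slc2a1, which encodes GLUT1, stood at 108 FPKM with DMSO and 38.2 with CBD in ASZ cells, and at 287 and 79.6 FPKM in RasV12 cells. Both CBD groups were lower than both DMSO groups, though levels of the lines come from separately made tables. Its log2 ratio in ASZ cells was -1.50 ± 0.23 (SE), and in RasV12 cells -1.85 with a standard error of at most 0.46, on every scale. Slc2a5, a fructose transporter, stood at 3.20 and 0.280 FPKM in ASZ cells and at 2.42 and 0.327 FPKM in RasV12 cells, falls of 11.4-fold and 7.40-fold that also held on every scale. In both tables Slc2a5 reached 1 FPKM, and so could be tested, only in the DMSO group, a choice that favours a fall. Slc2a8, a glucose transporter of internal membranes, was not called in ASZ cells, at 4.15 and 5.70 FPKM. In RasV12 cells it rose from 6.9997 to 15.8 FPKM, a call lost with equal FPKM sums and equal fragment mass. Slc2a3, the other common high-affinity glucose transporter, is no member, since it did not pass 0.158 FPKM in any group.

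Partners and regulators of these carriers were counted from a list of 6 genes, of which 2 rose and 1 fell in each line (33.3% and 16.7%, where 14% and 42.4% of all genes did in ASZ cells, and 18.7% and 24.4% in RasV12 cells). Bsg encodes basigin, the chaperone that brings monocarboxylate carriers to the surface, and it rose from 192 to 404 FPKM in ASZ cells and from 270.0 to 590.2 FPKM in RasV12 cells (not called in RasV12 cells with equal FPKM sums). Arrdc4, an arrestin of the family that lowers glucose uptake, rose from 8.79 to 22.2 FPKM and from 15.03 to 40.1 FPKM, again except for RasV12 cells with equal FPKM sums. Arrdc3 fell from 3.24 to 1.03 FPKM and from 4.97 to 1.49 FPKM on every scale, and Txnip, which acts on GLUT1, was not called in either line.

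The mitochondrial class held the most abundant carriers and took a larger share of all carrier FPKM with CBD. Its members made up 38.95% of the summed Slc FPKM in ASZ cells with DMSO and 59.7% with CBD, and 34.7% and 52.7% in RasV12 cells. A single factor for a whole group leaves these shares as they are. Subtraction of the length bin medians, which differs by gene, can change them, and the shares were not computed on that scale. Of 35 tested members, 14 fell and 7 rose in ASZ cells (40% and 20%, against 42.4% and 14% of all genes), with a median change of -0.07. Of 38, 9 fell and 12 rose in RasV12 cells (23.7% and 31.6%, against 24.4% and 18.7%), with a median of 0.19. The share that fell was thus near that of all genes in both lines on the deposited scale. The sign of these medians turned with scale, to 0.19 in ASZ cells with the median gene at 0, to 0.12 within length bins, to -0.26 in RasV12 cells with equal FPKM sums and to -0.13 with equal fragment mass.

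The carriers of ATP synthesis were among the highest of all members. Slc25a4, an ADP/ATP exchanger, stood at 384 and 520.4 FPKM in ASZ cells, with no call, and at 273 and 461 FPKM in RasV12 cells, where it rose. Slc25a5, a second ADP/ATP exchanger, rose from 175 to 253 FPKM in ASZ cells and from 184 to 301 FPKM in RasV12 cells. Slc25a3, the phosphate carrier, rose from 289 to 442 FPKM and from 216 to 368 FPKM. These rises were of 1.44-fold to 1.70-fold. They were lost with equal FPKM sums and within length bins and, except for Slc25a3 in ASZ cells, with equal fragment mass. Reads of the ADP/ATP exchangers could have been split between near-identical copies and pseudogenes. Slc25a11, the oxoglutarate and malate exchanger, stood at 78.8 and 98.4 FPKM with no call in ASZ cells, and rose from 87.5 to 136 FPKM in RasV12 cells, a call lost on the same 3 scales.

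Other carriers of the class rose further. Slc25a1, which exports citrate for fatty acid synthesis, stood at 40.8 FPKM with DMSO and 95.9 with CBD in ASZ cells, and at 64.9 and 149 FPKM in RasV12 cells. Its log2 ratio was 1.23 ± 0.22 (SE) in ASZ cells, on every scale, and 1.204 with a standard error of at most 0.30 in RasV12 cells, lost only with equal FPKM sums. Slc25a39, which imports glutathione into mitochondria, stood at 174 and 339 FPKM in ASZ cells and at 215 and 519 FPKM in RasV12 cells; its rises of 1.95-fold and 2.41-fold were lost with equal FPKM sums. Slc25a25, a calcium-regulated carrier of ATP-magnesium and phosphate, stood at 2.68 and 5.52 FPKM in ASZ cells and at 2.77 and 12.2 FPKM in RasV12 cells. Its rise of 4.42-fold in RasV12 cells held on every scale, and that of 2.06-fold in ASZ cells was lost with equal FPKM sums. Slc25a38, a glycine carrier for haem synthesis, rose from 4.28 to 7.79 FPKM in ASZ cells, and Slc25a37, the iron importer mitoferrin-1, rose from 4.53 to 9.74 FPKM in RasV12 cells. Both calls were lost with equal FPKM sums, and that of Slc25a37 also with equal fragment mass.

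The deepest falls of the class lay among carriers of lower level. Slc25a44, a carrier of branched-chain amino acids, stood at 7.17 and 1.04 FPKM in ASZ cells and at 7.28 and 2.002 FPKM in RasV12 cells. Slc25a13, an aspartate and glutamate exchanger of the malate-aspartate shuttle, stood at 6.77 and 1.15 FPKM in ASZ cells and at 6.01 and 1.70 FPKM in RasV12 cells. Slc25a16, linked to coenzyme A in mitochondria, stood at 3.72 and 0.802 FPKM in ASZ cells and at 4.49 and 1.45 FPKM in RasV12 cells. These 3 fell 3.09-fold to 6.92-fold, and the calls held on every scale in both lines. In ASZ cells Slc25a16 reached 1 FPKM only with DMSO, a choice that favours a fall. Slc25a24, from the same ATP-magnesium carrier group as Slc25a25, fell from 15.3 to 4.89 FPKM in ASZ cells, on every scale, and from 19.05 to 10.9 FPKM in RasV12 cells, where the call was lost within length bins. Slc25a29, a carrier of basic amino acids, fell from 1.40 to 0.615 FPKM in ASZ cells, except with the median gene at 0, and from 3.46 to 0.887 FPKM in RasV12 cells, on every scale. In both tables Slc25a29 reached 1 FPKM only with DMSO, which again favours a fall.

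Other genes of mitochondrial membrane transport were counted from fixed lists. Of 8 genes for channels and carriers outside the Slc families, 3 rose in ASZ cells and 5 in RasV12 cells, 0 fell in either, and the median changes were 0.46 and 0.73. Of all genes, 14% and 18.7% rose and 42.4% and 24.4% fell. With equal FPKM sums 0 of the 8 were called in either line and the medians were -0.05 and 0.15. Vdac1, a porin of the outer membrane, rose from 222 to 354 FPKM and from 233 to 438 FPKM. Of 8 genes for the import of carrier proteins, 3 rose and 1 fell in ASZ cells, and 0 rose and 1 fell in RasV12 cells, with medians of -0.07 and 0.36, against the same shares of all genes. The gene that fell in both was Agk, a lipid kinase that is also a subunit of the carrier import complex, from 3.37 to 1.92 FPKM and from 2.58 to 1.04 FPKM, and the ASZ call was lost with the median gene at 0 and within length bins.

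In the metal class, members of both zinc carrier families fell. The Slc30 proteins move zinc out of the cytosol and the Slc39 proteins move it in. Of 6 Slc30 members, 5 fell in ASZ cells and 4 in RasV12 cells, with 0 rises. Of 10 Slc39 members, 5 fell and 0 rose in ASZ cells, and 4 fell and 1 rose in RasV12 cells. Of all genes, 42.4% fell in ASZ cells, near the 50% of Slc39 members, and 24.4% fell in RasV12 cells. The shares that rose were 14% and 18.7%. Within length bins, 2 Slc30 members fell and 1 rose and 2 Slc39 members fell in ASZ cells. That made 4 of 16 class members fallen, near the 24.8% of all genes that fell there, where 23% rose. In RasV12 cells 2 Slc30 members fell and 2 rose, and 5 Slc39 members fell and 1 rose. Of all genes, 20.4% then fell and 17% rose. The class medians were -1.03 and -0.64, and were negative on every scale.

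Slc39a10, a zinc importer of the plasma membrane, stood at 26.2 and 3.68 FPKM in ASZ cells and at 16.8 and 4.66 FPKM in RasV12 cells. Its falls of 7.10-fold and 3.61-fold held on every scale. Slc39a6, a close relative with which it forms a complex, stood at 38.7 and 16.8 FPKM in ASZ cells and at 47.1 and 13.7 FPKM in RasV12 cells; the fall of 3.43-fold in RasV12 cells held on every scale, and that of 2.30-fold in ASZ cells was lost within length bins. Slc39a9, a zinc carrier of the secretory pathway, stood at 6.80 and 1.60 FPKM in ASZ cells and at 7.71 and 1.95 FPKM in RasV12 cells, and fell on every scale in both.

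Slc30a5 and Slc30a6, which form a pair that loads zinc into the early secretory pathway, fell together. Slc30a6 stood at 17.1 and 3.22 FPKM in ASZ cells and at 15.7 and 3.45 FPKM in RasV12 cells. Slc30a5 stood at 11.4 and 2.74 FPKM in ASZ cells and at 19.6 and 6.84 FPKM in RasV12 cells. The folds of the pair lay between 2.86 and 5.31, on every scale. Slc39a4, the zinc importer best known from the gut, went the other way in RasV12 cells. It stood at 1.39 and 1.804 FPKM in ASZ cells, with no call, and at 3.37 and 12.7 FPKM in RasV12 cells, a rise of 3.78-fold on every scale. Slc39a1, a widely expressed zinc importer, was not called in either line on the deposited scale, at 27.1 and 20.3 FPKM and at 49.1 and 34.4 FPKM. Slc30a4 and Slc30a7, which load zinc into vesicles and the Golgi, and Slc39a14, which also carries iron and manganese, fell in both lines by 1.74-fold to 3.42-fold, calls that were lost within length bins except for Slc39a14 in RasV12 cells.

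Slc30a1, the zinc exporter of the plasma membrane, had responses in the lines that differed from each other. It stood at 8.17 FPKM with DMSO and 3.43 with CBD in ASZ cells, and at 6.65 and 10.6 FPKM in RasV12 cells. The log2 ratio was -1.25 ± 0.27 (SE) in ASZ cells, a fall, and 0.67 ± 0.31 (SE) in RasV12 cells, not called (adjusted p = 0.061, from the authors' p-value). Within length bins the ASZ ratio was 0.09 and the RasV12 rise was called. The difference between the lines was 1.92 ± 0.41 (SE) on the log2 scale, with an adjusted p of 0.00021. The gene is a textbook target of MTF-1, the zinc-sensing transcription factor, whose metal response element has the core TGCACNC or TGCGCNC. Its promoter window is shown for these letters; it is chr1:191906531-191906830 on the plus strand of GRCm38.p6 (RefSeq), and capitals mark a core on the reverse strand 43 bases before the start and another 30 bases after it.
Slc30a1: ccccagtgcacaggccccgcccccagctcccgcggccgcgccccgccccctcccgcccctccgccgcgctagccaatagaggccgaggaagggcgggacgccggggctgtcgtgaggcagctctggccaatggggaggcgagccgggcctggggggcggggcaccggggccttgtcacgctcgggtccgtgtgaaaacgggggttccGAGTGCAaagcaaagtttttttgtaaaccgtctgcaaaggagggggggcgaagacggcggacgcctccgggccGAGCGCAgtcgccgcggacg
TGCACNC was found in 18.1% of the members' windows and in 12.6% of all windows, and TGCGCNC in 25.8% and 15.4%. In the 15 windows of the metal class the shares were 33.3% and 26.7%.

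Metallothioneins, zinc-binding proteins that are also MTF-1 targets, were abundant in every group. Mt1 rose from 1103 to 1760 FPKM in ASZ cells, a call lost with equal FPKM sums and within length bins, and fell from 4987 to 2412 FPKM in RasV12 cells, on every scale. Mt2 rose from 713 to 1795 FPKM in ASZ cells, on every scale, and was not called in RasV12 cells, at 4372 and 4001 FPKM. Mtf1 itself fell from 3.03 to 0.615 FPKM in ASZ cells, except within length bins, and stood at 3.24 and 1.13 FPKM without a call in RasV12 cells. Of 4 tested genes of the zinc and copper list, 2 rose and 2 fell in ASZ cells, and 0 rose and 1 fell in RasV12 cells, with medians of -0.13 and -0.68. The 2 that fell in ASZ cells, Mtf1 and Atp7a (1.39 and 0.246 FPKM), reached 1 FPKM there only with DMSO, a choice that favours a fall. Of all genes, 14% and 18.7% rose and 42.4% and 24.4% fell.

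Among the other 76 members, falls again outnumbered rises. In ASZ cells 44 of 71 tested fell and 1 rose (62.0% and 1.41%, against 42.4% and 14% of all genes), with a median change of -0.76. In RasV12 cells 30 of 75 fell and 8 rose (40% and 10.7%, against 24.4% and 18.7%), with a median of -0.47. In both lines 27 of 70 fell, where 23.2% of all genes did, spread over families with unlike cargo, among them all 3 members of the amino acid carrying Slc36 and Slc43 families (Slc36a1, Slc36a4 and Slc43a2). In ASZ cells Slc36a4 and Slc43a2 reached 1 FPKM only with DMSO, a choice that favours a fall. The class median was negative on every scale in both lines.

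Slc20a2, a sodium-coupled phosphate importer, stood at 22.8 and 3.47 FPKM in ASZ cells and at 28.9 and 3.81 FPKM in RasV12 cells. Its close relative Slc20a1 was not called in ASZ cells, at 35.5 and 36.8 FPKM, and stood at 45.8 and 74.97 FPKM in RasV12 cells, a rise lost with equal FPKM sums and equal fragment mass. Slc16a13, of the monocarboxylate family, stood at 18.1 and 3.11 FPKM in ASZ cells and at 24.3 and 2.899 FPKM in RasV12 cells. Slc45a4, of the Slc45 family, stood at 7.77 and 0.954 FPKM in ASZ cells and at 11.3 and 2.17 FPKM in RasV12 cells. Slc33a1, which carries acetyl-CoA into the endoplasmic reticulum, stood at 8.73 and 1.42 FPKM and at 10.5 and 3.07 FPKM. Slc10a7, of the bile acid carrier family, stood at 11.6 and 2.46 FPKM and at 10.6 and 2.37 FPKM. The falls of Slc20a2, Slc16a13, Slc45a4, Slc33a1 and Slc10a7 lay between 3.42-fold and 8.39-fold and held on every scale in both lines. In ASZ cells Slc45a4 reached 1 FPKM only with DMSO, a choice that favours a fall.

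Slc48a1, a haem transporter of endosomes and lysosomes, was the only one of the others that rose in both lines. It stood at 24.5 and 49.7 FPKM in ASZ cells and at 38.6 and 103 FPKM in RasV12 cells, and the rises of 2.03-fold and 2.67-fold were lost with equal FPKM sums. Slc29a1, the equilibrative nucleoside transporter ENT1, stood at 106 and 123 FPKM in ASZ cells, with no call, and rose from 119 to 240 FPKM in RasV12 cells. Slc44a2, of the choline transporter family, stood at 46.02 and 56.8 FPKM in ASZ cells, with no call, and rose from 58.0 to 112 FPKM in RasV12 cells. Slc45a3 stood at 1.01 and 1.07 FPKM in ASZ cells, with no call, and rose from 1.26 to 3.67 FPKM in RasV12 cells. These 3 RasV12 rises were lost with equal FPKM sums, and those of Slc29a1 and Slc44a2 also with equal fragment mass. The other nucleoside carriers fell in both lines on every scale: Slc29a2 went from 3.29 to 1.10 FPKM in ASZ cells and from 1.59 to 0.561 FPKM in RasV12 cells. Slc29a3, the lysosomal one, went from 4.03 to 0.598 FPKM and from 3.04 to 0.364 FPKM. Slc29a3 in both tables and Slc29a2 in RasV12 cells reached 1 FPKM only with DMSO, a choice that favours a fall. By family, 5 of 6 monocarboxylate carriers fell in ASZ cells and 2 of 7 in RasV12 cells, 3 and 2 of 4 folate and thiamine carriers fell, and 3 and 2 of 5 nucleotide sugar carriers fell, where 42.4% and 24.4% of all genes did. Of 2 choline and 2 copper carriers, 0 fell in either line. Slc46a1, the proton-coupled folate carrier, stood at 9.10 and 4.25 FPKM in ASZ cells and at 11.1 and 4.15 FPKM in RasV12 cells, and the call was lost with the median gene at 0 in ASZ cells. Slc23a2, which imports ascorbate, stood at 6.16 and 1.57 FPKM in ASZ cells, a fall lost within length bins, and at 16.7 and 4.502 FPKM in RasV12 cells, a fall on every scale. The organic anion transporters (Slco) were mostly at or near 0 FPKM: of 5 listed genes, 2 were tested, and 1 of these, Slco3a1, fell in RasV12 cells from 6.80 to 3.09 FPKM, except within length bins. A large fold was not always a call: Slc5a6, a sodium-coupled vitamin transporter, stood at 5.22 and 1.53 FPKM in ASZ cells with an adjusted p of 0.85.

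The response to CBD was tested for a difference between the lines gene by gene, with errors implied by p-values that take different forms in the tables and so may not be alike. Of 143 members, 9 (6.29%) differed, where 9.23% of 10406 genes did, so the share of members was not above that of all genes. In 8 of the 9 the RasV12 response lay above the ASZ response, as it did for 8.65% of all genes against 0.577% below. The strongest by p were Slc30a1, given above, and Slc16a6. Slc16a6, a monocarboxylate family member that exports ketone bodies in zebrafish, stood at 3.05 and 0.624 FPKM in ASZ cells and at 2.58 and 2.99 FPKM in RasV12 cells. Its log2 ratio was -2.29 ± 0.36 (SE) in ASZ cells, a fall on every scale, and 0.21 ± 0.40 (SE) in RasV12 cells, a difference of 2.50 ± 0.54 (SE) with an adjusted p of 0.00031. In the ASZ table Slc16a6 reached 1 FPKM only with DMSO, a choice that favours a fall there.

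The other 6 with a higher RasV12 response included carriers of iron, lactate, sulphate and bicarbonate. Slc40a1, the iron exporter ferroportin, stood at 9.28 and 1.73 FPKM in ASZ cells and at 8.64 and 5.31 FPKM in RasV12 cells. Slc26a2, a sulphate carrier, stood at 4.44 and 1.07 FPKM in ASZ cells and at 4.57 and 3.81 FPKM in RasV12 cells. Slc4a2, a chloride and bicarbonate exchanger, stood at 52.9 and 18.3 FPKM in ASZ cells and at 49.7 and 45.4 FPKM in RasV12 cells. For these 3, the separately made tables listed levels close to each other with DMSO and apart with CBD. Slc16a1, the lactate carrier MCT1 that basigin brings to the surface, stood at 19.7 and 10.6 FPKM in ASZ cells and at 13.4 and 18.03 FPKM in RasV12 cells. Slc38a10, a lesser known relative of Slc38a2, stood at 45.8 and 29.6 FPKM and at 47.3 and 69.8 FPKM, and Slc6a15, a neutral amino acid transporter, at 4.04 and 2.38 FPKM and at 2.26 and 3.68 FPKM. All 6 fell in ASZ cells and were not called in RasV12 cells on the deposited scale. In Slc7a14 alone the ASZ rise was the larger, by 1.73 ± 0.57 (SE) on the log2 scale. With the median gene of each table at 0, only Slc16a6, Slc30a1 and Slc7a14 of these 9 still differed, Slc3a2 and Slc6a9 were added, and the 5 made up 3.50% of members against 2.74% of genes.

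**Figure D4:**
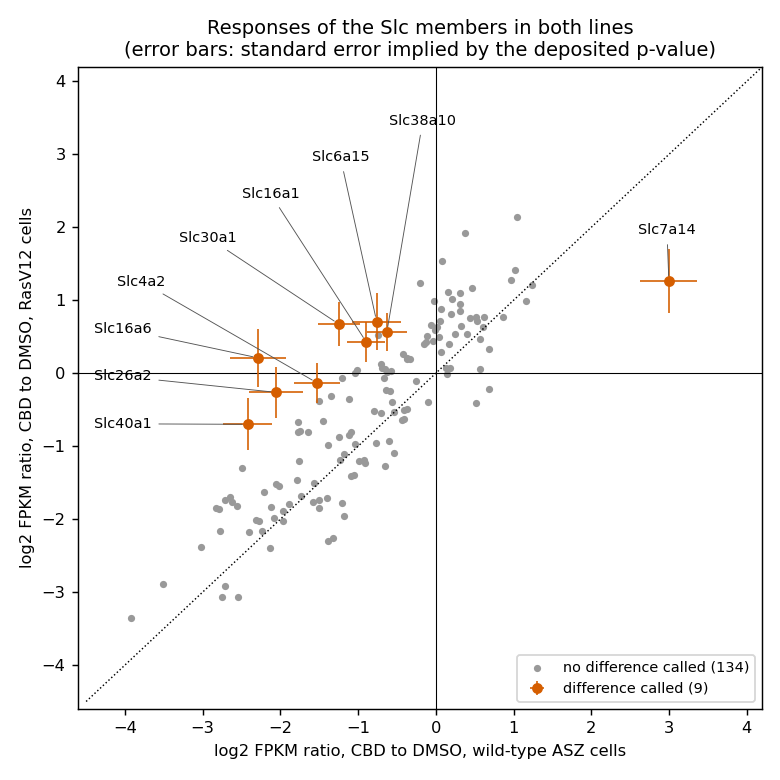
Log2 FPKM ratio of CBD to DMSO of 143 Slc members in wild-type ASZ cells (horizontal axis) and RasV12 cells (vertical axis), on the deposited scale. Orange points with their standard errors are the 9 members whose responses differed at adjusted p under 0.05; the dotted line marks equal responses. 8 of the 9 lie above that line and Slc7a14 lies below it, and with the median gene at 0 only Slc16a6, Slc30a1 and Slc7a14 of these remain called.

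The changes ran with transcript length. The Spearman correlation of change and length was -0.45 across members and -0.52 across all genes of the ASZ table, and -0.33 and -0.34 in the RasV12 table. In ASZ cells, 16 of 52 members with transcripts shorter than the median of all genes fell (30.8%, against 22.7% of genes of those lengths), and 63 of 92 longer members fell (68.5%, against 62.5%). In RasV12 cells the counts were 10 of 56 (17.9%, against 13.2%) and 48 of 98 (49.0%, against 36.1%). Mitochondrial members were shorter than the rest, with a median of 2811 nucleotides in the ASZ table, against 3926 for the amino acid and 3839 for the metal class. After subtraction of the length bin medians, 39 of 144 members fell in ASZ cells and 51 of 154 in RasV12 cells, where 24.8% and 20.4% of all genes did. What moved with length was not tested.

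**Figure D5:**
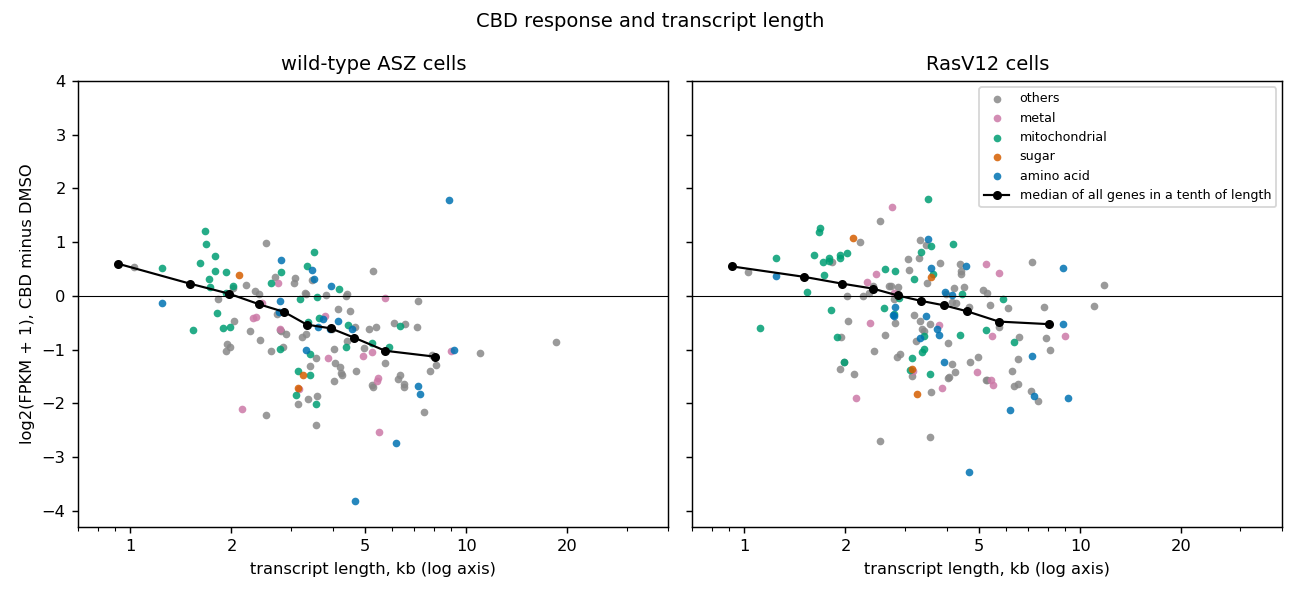
Change of each Slc member with CBD (log2(FPKM + 1), CBD minus DMSO, vertical axis) against transcript length in kilobases (log axis), coloured by class, in wild-type ASZ cells (left) and RasV12 cells (right). The black line joins the medians of all genes in 10 bins of length. It falls from 0.60 in the shortest bin to -1.13 in the longest in ASZ cells and from 0.55 to -0.53 in RasV12 cells, and Slc38a2 lies far below it in both.

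The DMSO levels of the lines are given side by side with no test, since they come from separately made tables. Their order was much alike, with a Spearman correlation of 0.95 over 155 members. By log2(FPKM + 1) as deposited, 13 of 152 members compared stood at least 2-fold higher in RasV12 cells and 5 at least 2-fold higher in wild-type cells, where 5.81% and 1.58% of 10926 genes did. The median gene itself stood 0.16 higher in RasV12 cells on that scale. Slc43a2, a carrier of branched-chain amino acids, stood at 1.23 FPKM in wild-type and 8.33 FPKM in RasV12 cells. Slc25a48 stood at 10.01 and 32.4 FPKM. Both, and Slc2a1, Slc3a2 and Slc7a11 with their levels above, were among those higher in RasV12 cells. Slc43a2, Slc25a48, Slc2a1 and Slc7a11 fell with CBD in RasV12 cells on every scale; the CBD levels not yet given were 1.74 FPKM for Slc43a2 and 15.2 FPKM for Slc25a48. The 5 higher in wild-type cells were Slc16a7, Slc7a1, Slc7a5, Slc24a3 and Slc6a6.

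2 further motifs were counted in the members' windows, on both strands. The E-box CACGTG stood in 16.1% of them and in 7.15% of all windows, and the AP-1 letters TGACTCA in 1.94% and 5.20%. These shares carry no test, and overlapping windows of 1 gene share bases.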

How the data were processed

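RNA from 8 libraries was sequenced, 2 per group. Per the labels' protocols, total RNA was column purified and made into TruSeq libraries; the submitters' processing notes name TopHat, Cufflinks and mm9, without versions. For each line the authors deposited 1 FPKM value per gene and group and 1 p-value per gene, with no value per library, so no spread between libraries, exact test over libraries or interval per library could be given; the p-values come from the authors' model across genes. The column heads do not write FPKM, and the unit is taken from the Cufflinks form of the table. The deposited p-values of the ASZ table ran down to 0, and those of the RasV12 table stopped at 5e-05, shared by 1707 of the genes used, so adjusted p-values there end at 0.00032. These tables were made separately, and tests across them use only the ratio within each.

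The following was computed from the deposited values with Python 3.11.15, pandas 2.3.3, numpy 2.4.6, scipy 1.17.1 and matplotlib 3.10.9. Older symbols were replaced through RefSeq synonyms; of a repeated symbol, the highest row was used where the others were under 10% of it. A gene was used where it had a test and 1 FPKM or more in either group of its table, and the authors' p-values were adjusted by Benjamini-Hochberg over them. A call is an adjusted p under 0.05. Medians are of log2(FPKM + 1), which understates changes of low genes; folds and log2 ratios are of FPKM as deposited. The p-value gives a standard error, as the size of the ratio over the normal deviate of that p, an upper bound at the lowest p. Line differences were tested by a two-sided normal test on the difference of the ratios, with Benjamini-Hochberg adjustment over 10406 genes; the p-values of the RasV12 table all lie on steps of 5e-05, as 12.3% of those of the ASZ table do, so the errors set against each other may come from differing tests. Depth was estimated from the steps of low FPKM values times length in genes of at most 3 exons. Lengths were those of GENCODE transcripts, known for 97.3% and 97.1% of the genes used. The calls by adjusted p, the implied errors and the test of the line difference were run on simulated data. Those data were drawn from the same normal error model that the steps assume, so the run cannot show whether that model holds here. The scalings, the depth estimate and the handling of repeated symbols were not simulated.

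The named genes are, per class and line, the 4 largest called rises and falls, the 10 highest mean levels, the lowest p of the line difference, and genes listed by name; other genes were chosen after their values were seen. The members and all lists were chosen with earlier results of these data known.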

Additional observations from a re-analysis of the deposited data

Results flagged for a closer look

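For 9 carriers the log2 ratio of CBD to DMSO differed between the lines by the test of the difference itself, at a Benjamini-Hochberg adjusted p under 0.05 over 10406 genes; all differences below are RasV12 minus ASZ. They are the differences behind the plot of the responses of the lines, given here with their errors. For Slc30a1, the zinc exporter, the difference was 1.92 ± 0.41 (SE), with an adjusted p of 0.00021. For Slc16a6 it was 2.50 ± 0.54 (SE), with an adjusted p of 0.00031. Slc26a2, the sulphate carrier, differed by 1.79 ± 0.49 (SE), with an adjusted p of 0.0069.

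The iron exporter Slc40a1 differed by 1.72 ± 0.48 (SE), with an adjusted p of 0.0081, and the lactate carrier Slc16a1 by 1.32 ± 0.37 (SE), with an adjusted p of 0.0086. Slc4a2, the bicarbonate exchanger, differed by 1.40 ± 0.40 (SE), with an adjusted p of 0.011. Of the amino acid class, Slc38a10 differed by 1.19 ± 0.37 (SE), with an adjusted p of 0.020, and Slc6a15 by 1.47 ± 0.50 (SE), with an adjusted p of 0.040. In Slc7a14 the sign was the other one, at -1.73 ± 0.57 (SE), with an adjusted p of 0.034, and its ASZ error is an upper bound.

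With the median gene of each table at 0, the difference was 2.07 for Slc16a6 (with an adjusted p of 0.0093), 1.49 for Slc30a1 (with an adjusted p of 0.015) and -2.17 for Slc7a14 (with an adjusted p of 0.011). For the other 6 the adjusted p was then between 0.113 and 0.333. The libraries behind each value could not be looked at one by one.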

How the results depend on the processing

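With equal FPKM sums, 2 members rose in each line; the class medians in ASZ cells were -0.92 (amino acid), -1.81 (sugar), -0.45 (mitochondrial), -1.36 (metal), -1.06 (others) and -0.97 over all members; those in RasV12 cells were -0.84 (amino acid), -0.26 (mitochondrial, turned in sign), -1.10 (metal), -0.92 (others) and -0.74 over all members. With the median gene at 0, 26 members rose in ASZ cells, the ASZ medians were -0.15, -1.05, 0.19 (turned in sign), -0.71, -0.43 and -0.25 in the same order, and 5 members differed between the lines. Within length bins, 26 members rose and 39 fell in ASZ cells, and the ASZ medians were 0.10 (amino acid, turned in sign), -0.84, 0.12 (mitochondrial, turned in sign), -0.26, -0.34 and -0.084. There the ASZ log2 ratios of Slc16a1 (0.10), Slc30a1 (0.095), Slc38a10 (0.36) and Slc7a11 (0.19) also turned in sign, with adjusted p between 0.252 and 0.799. With equal fragment mass, 7 members rose in RasV12 cells and the medians were -0.75 (amino acid) and -0.13 (mitochondrial, turned in sign). With at least 5 FPKM asked for, 50 members fell in ASZ cells, the ASZ medians were -0.55 (sugar) and 0.073 (mitochondrial, turned in sign), and the RasV12 medians 0.63 (mitochondrial) and 0.11 (all genes, turned in sign). With no filter on level the ASZ sugar median was -0.63. With a 2-fold change also asked for, 5 members of the ASZ table and 12 of the RasV12 table rose, and at adjusted p under 0.01 12 rose in RasV12 cells. Apart from the scalings' own shifts and the fewer genes left by stricter filters, the causes were not tested. Of the values that answer a comparison, 86 of those recomputed kept direction and size, 34 moved and 6 turned in sign. Leaving out the symbols that name no carrier, an alternative chosen after seeing the data, left 57 fallen and 24 risen in RasV12 cells.

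No paired analysis was possible because the deposited tables hold 1 value per group, and for the same reason no library could be left out. Precision followed level: the median standard error of a log2 ratio of wild-type cells was 0.37 for members under 10 FPKM and 0.24 for the others, and that of RasV12 cells was 0.42 and 0.29. Errors at the lowest p of a table are upper bounds.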

Other observations

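Some carriers with a large fold had no call. Slc5a6, Slc16a10 in ASZ cells, and Slc16a11 and Slc25a43 in RasV12 cells changed at least 2-fold in listed level at an adjusted p over 0.05, and the log2 ratio of Slc5a6 in ASZ cells was -1.77 with an implied standard error of 6.98.

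Carriers took a smaller share of all listed FPKM with CBD in both lines. It was 0.972% with DMSO and 0.617% with CBD in ASZ cells, and 0.925% and 0.671% in RasV12 cells. A single factor for a whole group cannot change these shares. Subtraction of the length bin medians, which differs by gene, can, and the shares were not computed on that scale. As listed, the carriers summed to 3610 FPKM with DMSO and 3284 with CBD in ASZ cells. In RasV12 cells their sum was higher with CBD, at 4045 and 4422 FPKM. The sum over all genes was higher with CBD in both lines (371297 and 531898 FPKM in ASZ, 437048 and 658792 in RasV12). Summed over the mitochondrial class the level was 1404 FPKM with DMSO and 1956 FPKM with CBD in ASZ cells, and 1403 and 2332 FPKM in RasV12 cells. Summed over the amino acid class it was 848 and 425 FPKM in ASZ cells, and 881 and 544 FPKM in RasV12 cells.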
